A study of Mus musculus with 6 samples.

Results

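The PRDM proteins are transcriptional regulators that carry a PR domain, related to the SET domain of histone methyltransferases, together with zinc fingers that bind DNA. PRDM14 is found mainly in pluripotent cells and primordial germ cells, the precursors of sperm and eggs, where it acts largely as a repressor; it is not known to methylate histones itself and works through partner proteins. One partner is CBFA2T2 (also called MTGR1), a corepressor of the ETO family that has no DNA-binding domain of its own and is brought to DNA by the factors it binds. In mouse ES cells CBFA2T2 binds PRDM14 and helps to hold it on chromatin.

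The genes described here are *Prdm14*, *Prdm1*, *Prdm2*, *Prdm4*, *Prdm10*, *Prdm15*, *Prdm16* and *Cbfa2t2*. They were chosen by name, as 7 PRDM family genes and the PRDM14 partner. Of these 8 genes, 6 had a probe named for them in the array annotation, with 10 probes among the 45281 on each array. *Prdm1*, which encodes BLIMP1, a regulator of germ cell specification and plasma cells, and *Prdm10*, which encodes another zinc-finger regulator, had no probe named for them in the annotation used here and were not analysed. The annotation named 13842 probes by 1 symbol, so that a probe without a name may still belong to one of these genes.

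Transcript levels were measured on Illumina mouse WG-6 BeadChips in 3 *Prdm14*-null and 3 wild-type samples of mouse ES cells. All 6 samples were grown in 2i medium, which contains inhibitors of MEK and of glycogen synthase kinase-3 and holds ES cells in a naive pluripotent state. The ES cells without *Prdm14* were derived in 2i from embryos of crosses between carriers of a targeted C57BL/6 allele. Replicates were taken at consecutive passages, and nothing in the sources used here states that they were separate lines, so p-values measure only the spread between these samples, which may be technical.

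The median signal of an array, in the arbitrary fluorescence units of the scanner, lay between 63.5 and 74.8 in *Prdm14*-null samples and between 56.8 and 80.6 in wild-type samples. Wild-type replicate 1 was the dimmest array and wild-type replicate 3 the brightest. Between 13456 and 14901 probes per array were detected, where a probe counts as detected if the deposited detection p-value, which sets it against control beads, was below 0.01. ES cell markers were in place, with *Pou5f1*, *Nanog*, *Sox2*, *Zfp42* and *Esrrb* (5 of 5) detected on all arrays of both genotypes. One probe each of *Pou5f1* and *Sox2* was called higher in *Prdm14*-null cells at the threshold defined below, with log2 fold changes of 0.60 and 0.54 (limma adjusted p = 0.00336 and 0.00437), and their second probes were not (0.35 and 0.30, adjusted p = 0.0284 and 0.255). The lines also differed beyond *Prdm14*: *Eif2s3y*, a gene of the Y chromosome, was detected on 3 of 3 *Prdm14*-null arrays and on 0 of 3 wild-type arrays. *Uty*, the other Y-linked gene with a named probe, was detected on 3 of 3 arrays of each genotype and was not called (log2 fold change 0.32, limma adjusted p = 0.132). Genotype and other differences between the lines therefore cannot be told apart.

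After background correction and quantile normalization, limma was run on the 14436 probes that 3 or more of the 6 arrays detected, and a probe was called at an adjusted p under 0.01. All values called log2 levels below are these normalized log2 intensities, and every log2 fold change is *Prdm14*-null minus wild-type. All 10 probes of the 6 measured genes passed the detection filter, although the 2 probes of *Prdm14* passed it only through the wild-type arrays. Of the 10 probes, 2 were called, both of them *Prdm14* probes and both lower in *Prdm14*-null cells, where 7.54% of all tested probes were called lower, 6.18% higher and 13.7% in either direction. The other 8 probes, from 5 genes, gave no call in limma at this threshold; 2 of them, both for *Cbfa2t2*, had an unadjusted p under 0.05, against 37.6% of all tested probes.

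**Figure D1:**
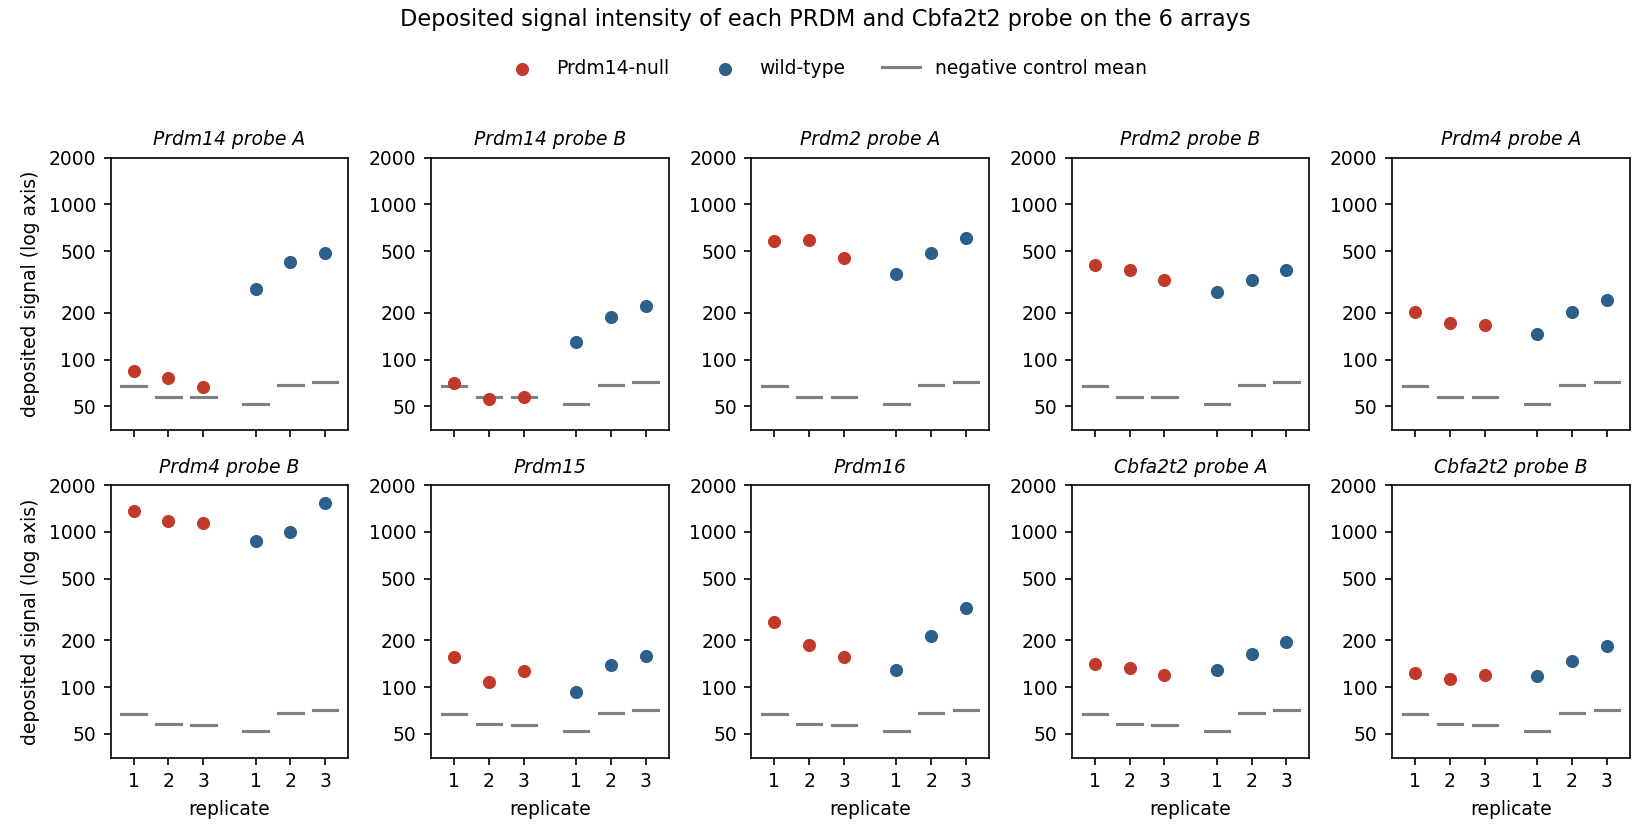
Deposited signal intensity (vertical log axes) of each probe of the 6 measured genes on each array, with 1 point per array. *Prdm14*-null arrays are left of wild-type arrays, and a line marks the mean negative control level of each array. The genotypes lie far apart on the *Prdm14* probes, whose *Prdm14*-null points are at background. On the probes of the other genes, *Cbfa2t2* included, the signals of the genotypes overlap.

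*Prdm14* itself, the gene that the genotype targets, was at background in every *Prdm14*-null sample and well above it in every wild-type sample. Probe A of *Prdm14* (ILMN_1222112) gave deposited signals of 84.2, 75.6 and 66.6 in *Prdm14*-null replicates 1, 2 and 3, against 285, 427 and 487 in the wild-type replicates. Its detection p-values were 0.0833, 0.0609 and 0.149 in *Prdm14*-null samples, so that it was not detected on any of those arrays, and 0 on each wild-type array. The log2 levels were 5.03, 5.14 and 4.86 in *Prdm14*-null samples and 8.52, 8.54 and 8.44 in wild-type samples.

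The 3 wild-type levels thus lay close together although the raw signals of the same arrays differed, and the genotypes did not overlap on either scale. The mean level was 5.01 ± 0.14 in *Prdm14*-null cells and 8.50 ± 0.05 in wild-type cells (SD, n = 3 each). The fitted log2 fold change was -3.49 (SE 0.10, 95% confidence interval -3.72 to -3.25, limma adjusted p = 2.73e-07). Because the probe was not detected in *Prdm14*-null cells, its level there is only a bound. Set against the lowest signal that was detected on each *Prdm14*-null array (mean log2 level 5.76), probe A was at least 6.66-fold lower in *Prdm14*-null cells.

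Probe B of *Prdm14* (ILMN_3037312) gave the same picture at a lower signal. Its deposited signals were 70.9, 55.7 and 56.9 in *Prdm14*-null samples, with detection p-values of 0.283, 0.479 and 0.403, against 130.0, 188 and 222 in wild-type samples. No *Prdm14*-null array detected it, and the genotypes did not overlap. The log2 level was 4.61 ± 0.06 in *Prdm14*-null cells and 7.05 ± 0.03 in wild-type cells (SD, n = 3 each), a log2 fold change of -2.44 (SE 0.09, 95% confidence interval -2.65 to -2.24, limma adjusted p = 9.32e-07). By the same bound it was at least 2.45-fold lower in *Prdm14*-null cells. The sources used here do not place either probe inside or outside the deletion.

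The size of the *Prdm14* fold change depended on how the background was treated, while its direction and call did not. Without background correction the log2 fold change was -2.18 for probe A and -1.30 for probe B, and in the processed values that the authors deposited it was -1.59 and -0.79 in the same order.

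*Cbfa2t2* had lower mean levels in *Prdm14*-null cells on both of its probes, and neither probe passed the threshold. Probe A of *Cbfa2t2* (ILMN_1228018) had deposited signals of 141, 134 and 120 in *Prdm14*-null samples and 129, 164 and 194 in wild-type samples, which overlap. Its log2 levels after normalization were 6.36, 6.57 and 6.41 in *Prdm14*-null samples and 7.06, 6.74 and 6.79 in wild-type samples, which do not. The highest of the 6 levels belonged to wild-type replicate 1, the array with the lowest raw signals.

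Probe A of *Cbfa2t2* averaged 6.44 ± 0.11 in *Prdm14*-null cells and 6.86 ± 0.18 in wild-type cells (SD, n = 3 each). The log2 fold change was -0.42 (SE 0.12, 95% confidence interval -0.68 to -0.15), with an unadjusted p of 0.00682 and a limma adjusted p of 0.032. On the linear scale this is 0.75 of the wild-type level (interval 0.622 to 0.903), and 23.1% of all tested probes had a larger absolute log2 fold change. The size of this ratio depended on the processing. The log2 fold change of probe A was -0.26 without background correction and -0.18 in the authors' processed values.

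Probe B of *Cbfa2t2* (ILMN_2752204) had deposited signals of 123, 113 and 120 in *Prdm14*-null samples and 119, 147 and 183 in wild-type samples. The log2 levels were 6.06, 6.19 and 6.40 in *Prdm14*-null samples and 6.88, 6.50 and 6.67 in wild-type samples. Here too the raw signals overlapped, the normalized levels did not, and wild-type replicate 1 was the highest. The means were 6.21 ± 0.17 in *Prdm14*-null cells and 6.68 ± 0.19 in wild-type cells (SD, n = 3 each), with a log2 fold change of -0.47 (SE 0.13, 95% confidence interval -0.77 to -0.16, limma adjusted p = 0.0325). Both probes report the same RNA on the same arrays and are not independent replicates of the difference.

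With the threshold at an adjusted p of 0.05, which 12.6% of all tested probes passed as lower, 12.8% as higher and 25.4% in either direction, both *Cbfa2t2* probes were called. At that threshold both calls ended without *Prdm14*-null replicate 1 (limma adjusted p = 0.0858 for probe A and 0.093 for probe B), without wild-type replicate 1 (0.0757 and 0.0863) and without wild-type replicate 3 (0.058 and 0.0779). Both also ended with the replicate block (0.0637 and 0.0543) and without a filter on dim probes (0.0696 and 0.089). That of probe A also ended without *Prdm14*-null replicate 3 (0.0866), with a trend in the variance (0.0524) and with a robust trend (0.0539), and that of probe B without *Prdm14*-null replicate 2 (0.094). Without wild-type replicate 1 the log2 fold changes were -0.32 and -0.37. In the authors' processed values, where both calls ended too, the fold changes were -0.18 and -0.18 (limma adjusted p = 0.0735 and 0.0745). The direction was the same under every alternative run, with log2 fold changes between -0.48 and -0.18 for probe A and between -0.56 and -0.18 for probe B. Adjusted p-values over these alternatives ran between 0.0193 and 0.0866 for probe A and between 0.0205 and 0.094 for probe B.

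**Figure D2:**
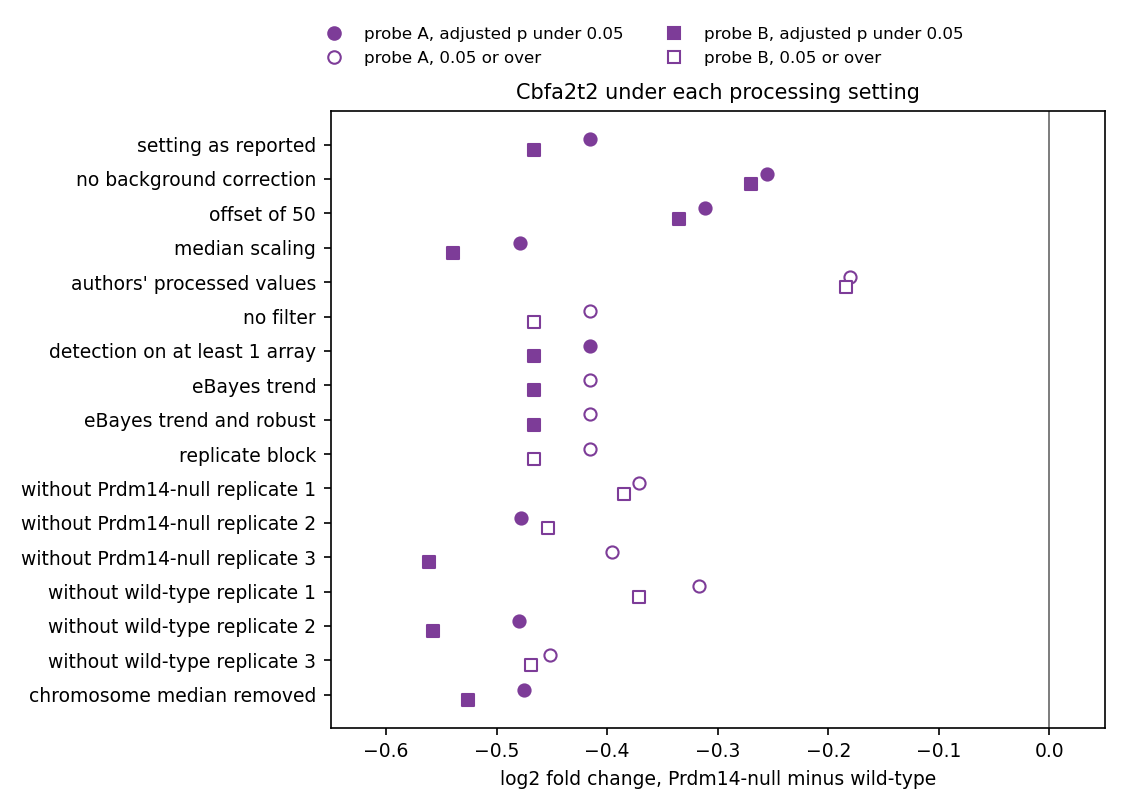
Log2 fold change (*Prdm14*-null minus wild-type, horizontal axis) of the 2 *Cbfa2t2* probes under each processing setting, 1 row per setting. Filled points have an adjusted p under 0.05; every point lies below 0, between -0.56 and -0.18.

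In RNA from a whole culture, fewer cells that express a gene and less RNA per cell cannot be told apart, and this holds for *Cbfa2t2* and for every other gene here. The other members of the ETO family, *Cbfa2t3* and *Runx1t1*, had no probe named for them in the annotation used here.

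The other measured PRDM genes, *Prdm2*, *Prdm4*, *Prdm15* and *Prdm16*, were all detected on all 6 arrays, and no probe of theirs was called. Their 6 probes had no unadjusted p under 0.05, the lowest limma adjusted p was 0.257, and their confidence intervals together ran between -0.56 and 0.42 on the log2 scale. The intervals give the precision reached with 3 arrays of each genotype and are not a limit of detection. A probe without a call may still differ between the genotypes by a value inside its own interval. The smallest change that could be called was not tested.

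*Prdm2* encodes RIZ, a tumour suppressor that can methylate histone H3. Probe A of *Prdm2* (ILMN_1250454) had log2 levels of 8.84, 9.11 and 8.75 in *Prdm14*-null samples and 8.87, 8.76 and 8.82 in wild-type samples. Probe B (ILMN_2707291) had 8.26, 8.43 and 8.24 in *Prdm14*-null samples and 8.44, 8.08 and 8.02 in wild-type samples. The genotypes overlapped on both probes, and *Prdm14*-null replicate 2 was the highest on A. The log2 fold changes were 0.08 for probe A (95% confidence interval -0.18 to 0.35, limma adjusted p = 0.637) and 0.13 for probe B (-0.17 to 0.42, adjusted p = 0.516).

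*Prdm4* encodes a regulator that works with the arginine methyltransferase PRMT5 and holds neural stem cells in an undifferentiated state. Its probe A (ILMN_2524723) had log2 levels of 7.08, 7.07 and 7.08 in *Prdm14*-null samples and 7.34, 7.16 and 7.21 in wild-type samples. All 3 *Prdm14*-null levels were below all 3 wild-type levels, as was the case for 19.5% of all tested probes, and the log2 fold change was -0.16 (95% confidence interval -0.37 to 0.05, limma adjusted p = 0.257). Probe B of *Prdm4* (ILMN_2945238) had log2 levels of 10.17, 10.17 and 10.18 in *Prdm14*-null samples and 10.23, 9.91 and 10.24 in wild-type samples. Wild-type replicate 2 was below and the other two wild-type samples above all *Prdm14*-null samples, and the log2 fold change was 0.05 (-0.21 to 0.30, adjusted p = 0.803). The 2 probes of *Prdm4* thus had fold changes of opposite sign, and both intervals include 0.

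*Prdm15* encodes a factor that supports naive pluripotency in mouse ES cells by regulating genes of the WNT and MAPK pathways. Its 1 probe (ILMN_1233271) had log2 levels of 6.59, 6.09 and 6.53 in *Prdm14*-null samples and 6.30, 6.37 and 6.36 in wild-type samples. *Prdm14*-null replicate 2 was the lowest of the 6 samples and the other two *Prdm14*-null samples were the highest. The log2 fold change was 0.06 (95% confidence interval -0.25 to 0.37, limma adjusted p = 0.788).

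*Prdm16* encodes a regulator of brown fat and of haematopoietic stem cells. Its 1 probe (ILMN_2513922) had log2 levels of 7.55, 7.23 and 6.96 in *Prdm14*-null samples and 7.06, 7.28 and 7.74 in wild-type samples. The samples of each genotype spread widely and overlapped, which made this the widest interval among the 8 probes that do not measure *Prdm14*. The log2 fold change was -0.11 (95% confidence interval -0.56 to 0.34, limma adjusted p = 0.714).

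**Figure D3:**
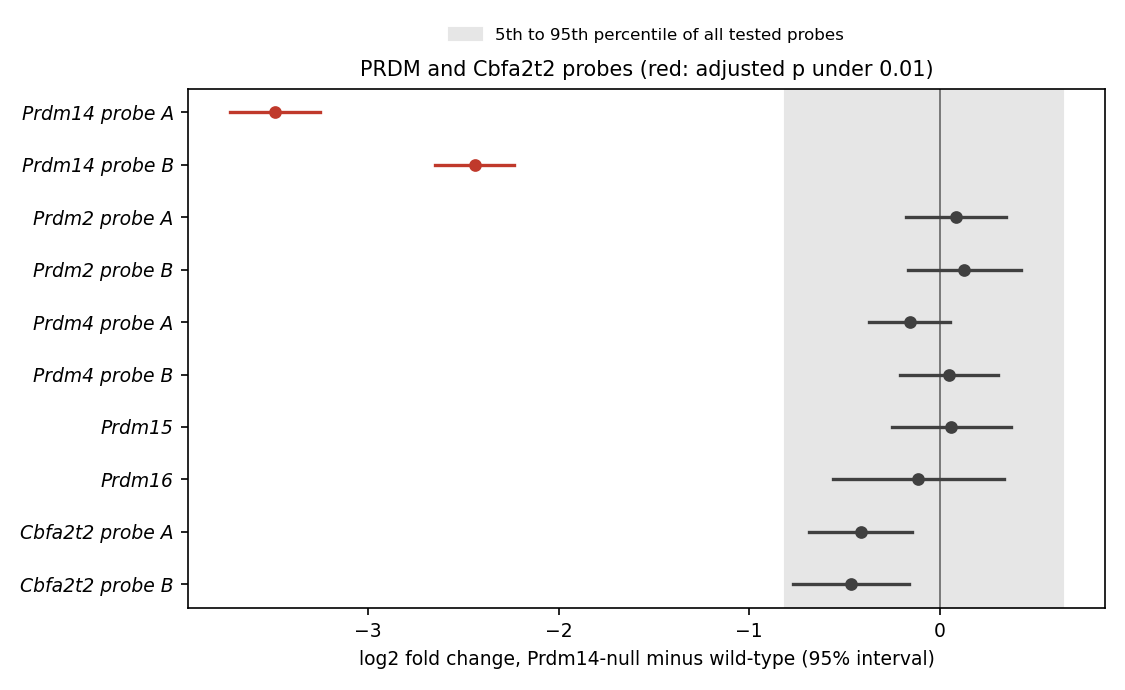
Log2 fold change (*Prdm14*-null minus wild-type, horizontal axis) of each of the 10 probes, with its 95% confidence interval from limma. Only the *Prdm14* and *Cbfa2t2* intervals exclude 0; the remaining 6 intervals lie between -0.56 and 0.42.

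Over the 8 probes of the 5 genes other than *Prdm14*, the log2 fold changes ran between -0.47 and 0.13 with a median of -0.03, and the median absolute log2 fold change was 0.12. Over all tested probes the median was 0.03, the median absolute log2 fold change was 0.20, and the 5th and 95th percentiles were -0.81 and 0.65. Among the 8 probes, 3 (*Prdm4* probe A and both *Cbfa2t2* probes) had genotypes that did not overlap, and 42.3% of all tested probes did so in either direction.

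Outside these genes, 9 further members of the PRDM family were looked up and 1 had a named probe, *Mecom* (PRDM3), which encodes a haematopoietic stem cell regulator. Its signals were 103.8, 91.3 and 89.0 in *Prdm14*-null samples and 76.6, 93.2 and 112.3 in wild-type samples. Only wild-type replicate 3 detected it, with a deposited detection value of 0.00534, and those of the other 5 arrays lay between 0.0118 and 0.0224. It was therefore not tested.

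The proteins through which CBFA2T2 and PRDM14 are known to act were also looked up. Of 12 genes for corepressors and deacetylases that ETO family proteins recruit, 9 had a tested probe, and none of their 12 tested probes was called by limma, with 3 at an unadjusted p under 0.05; over all tested probes 13.7% were called and 37.6% had such a p. Their median log2 fold change was -0.05 (range -0.29 to 0.17). The lowest adjusted p belonged to *Hdac2*, a histone deacetylase, with a log2 fold change of -0.26 (limma adjusted p = 0.0735); like the other single genes of these lists named here, it was chosen after its values were seen.

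Of 9 genes for chromatin factors reported to act with PRDM14, 6 had a tested probe, and again none of 12 probes was called at an adjusted p of 0.01. Here 6 of the 12 probes had an unadjusted p under 0.05, against 37.6% of all tested probes, of which 13.7% were called, and the median log2 fold change was 0.15 (range -0.36 to 0.64). These 6 probes include all 4 probes of the single gene *Rbbp7*, which are not independent of each other. *Suz12*, a subunit of the Polycomb repressive complex that methylates histone H3, had log2 levels of 12.45, 12.40 and 12.49 in *Prdm14*-null samples and 12.89, 12.73 and 12.80 in wild-type samples. The *Prdm14*-null samples were all lower, with a log2 fold change of -0.36 and a limma adjusted p of 0.0233. *Suz12* did pass 0.01 without background correction (adjusted p = 0.00607), in the authors' processed values (0.00238), with an intensity trend in the variance (0.00151) and with a robust trend (0.0012). It missed 0.05 with median scaling (0.0656), with the replicate block (0.0522) and in 4 of the 6 fits that left out an array: *Prdm14*-null replicate 1 (0.0503), *Prdm14*-null replicate 2 (0.0878), wild-type replicate 1 (0.0589) and wild-type replicate 3 (0.0612). *Rbbp7*, a gene of the X chromosome, encodes a histone-binding subunit of several complexes including Polycomb. It had log2 fold changes of 0.57, 0.64, 0.60 and 0.44 on its 4 probes (limma adjusted p = 0.026, 0.0337, 0.0208 and 0.0462). Wild-type replicate 1 had the lowest level on each of those 4 probes, and the first 3 passed 0.01 without background correction (adjusted p = 0.0056, 0.00799 and 0.00402) and with an intensity trend (0.0029, 0.00457 and 0.0019). The same 3 probes missed 0.05 without a filter on dim probes (0.0918, 0.127 and 0.0775), without *Prdm14*-null replicate 2 (0.0545, 0.0829 and 0.0647) and without *Prdm14*-null replicate 3 (0.0814, 0.0953 and 0.0664). The first and second also missed it without *Prdm14*-null replicate 1 (0.0503 and 0.0535), and the second without wild-type replicate 3 (0.0514). Without wild-type replicate 1 the 3 probes' log2 fold changes were 0.40, 0.41 and 0.44. Over all alternatives run, the adjusted p of the 4 probes lay between 0.0019 and 0.153. The other tested members of the list, *Ezh2*, *Eed*, *Rbbp4* and *Tet1*, had no probe with an adjusted p under 0.05.

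Genes listed as partners or targets of other PRDM proteins gave no call either. Of 6 such genes, 3 (*Prmt5*, *Wdr77* and *Ctbp2*) had 7 tested probes, of which 2 had an unadjusted p under 0.05, against 37.6% of all tested probes, of which 13.7% were called. Their median log2 fold change was 0.19 (range -0.10 to 0.28), and the lowest limma adjusted p was 0.0719, for a probe of *Prmt5*. Of the 6 genes nearest to *Prdm14* on chromosome 1, *Sulf1* and *Tram1* had 5 tested probes, none called and none with an unadjusted p under 0.05. The probes of *Sulf1*, which edits heparan sulphate at the cell surface, had log2 fold changes of -0.28 and -0.35, which were -0.14 and -0.088 without *Prdm14*-null replicate 1. Those of *Tram1*, a part of the protein translocation machinery, had 0.01, 0.02 and 0.09.

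**Figure D4:**
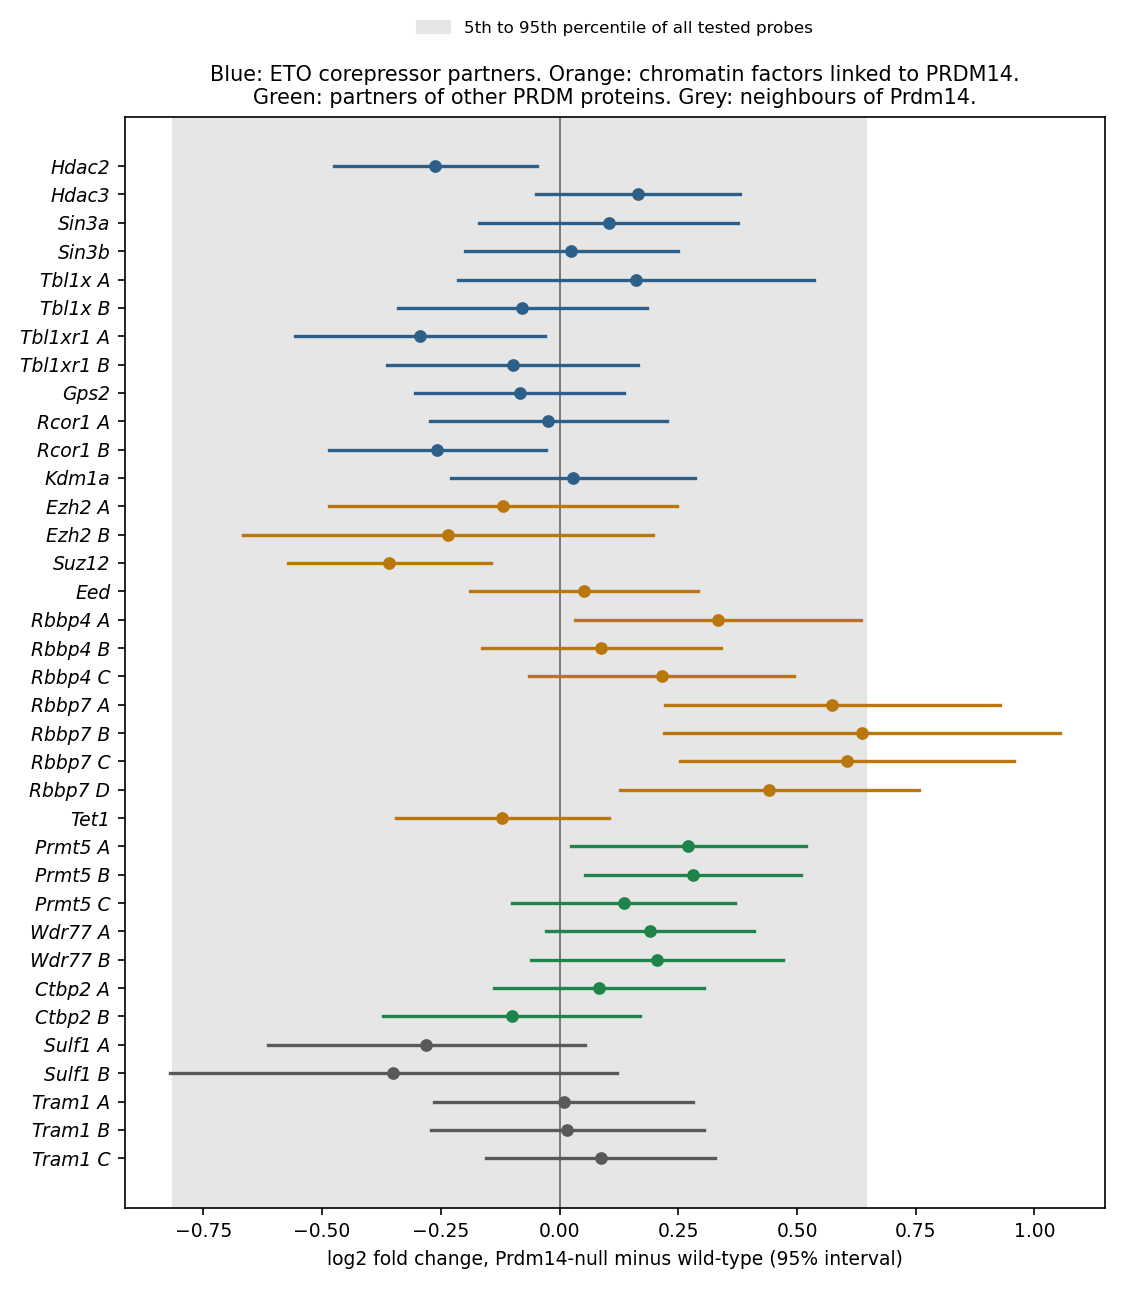
Log2 fold change (*Prdm14*-null minus wild-type, horizontal axis) with 95% confidence intervals for each tested probe of the corepressor, chromatin, PRDM partner and neighbouring genes. No probe passed an adjusted p of 0.01; the 4 probes of *Rbbp7* lie between 0.44 and 0.64 and the probe of *Suz12* at -0.36.

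The probes of other genes whose levels followed each gene most closely over the 6 arrays were found among 12580 tested probes, as a description. For *Prdm14* probe A they were *Fhl1* (Pearson r = 0.9999, and 0.9987 for its second probe), *Ddc* (0.9995), *Aox3* (0.9994) and *Fmr1nb* (0.9987). Of these genes, *Fhl1* and *Fmr1nb* lie on the X chromosome. All 5 probes were called lower in *Prdm14*-null cells, with log2 fold changes of -1.69 and -1.76 for *Fhl1*, -0.50 for *Ddc*, -1.19 for *Aox3* and -1.05 for *Fmr1nb*. With 6 arrays in 2 genotypes, such values mostly restate a difference between genotypes with little spread inside each.

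For the brighter *Cbfa2t2* probe they were *Nhp2* (r = 0.994), *Xkr8* (0.994), *Brca2* (0.993), *Med11* (0.991) and *Zmiz2* (0.988). Their log2 fold changes were -0.21, -0.64, -0.50, -0.34 and -0.51 in that order, and none was called. Like both *Cbfa2t2* probes, each of them was highest on wild-type replicate 1, the array with the lowest raw signals. These correlations therefore also reflect the level on that single array, and shared regulation was not tested.

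Markers of other cell types were measured in part. No feeder fibroblast marker of 7 had a named probe. Of 7 primitive endoderm markers 2 had one, *Sox7* and *Dab2*. Summed levels add every probe of a list, also those that failed the detection filter. The sum ran between 211 and 570 in *Prdm14*-null samples and between 172 and 233 in wild-type samples. Neither gene was called: *Sox7* failed the detection filter and the 2 probes of *Dab2* had log2 fold changes of 1.10 and 0.84 (limma adjusted p = 0.0596 and 0.107). The first *Dab2* probe had log2 levels of 8.24, 7.59 and 6.54 in *Prdm14*-null replicates 1, 2 and 3. In the wild-type replicates it had 6.21, 6.11 and 6.74, so the genotypes overlapped. Of 5 trophectoderm markers *Cdx2* and *Krt7* had a probe, with a summed level between 307 and 443 in *Prdm14*-null samples and between 400.1 and 602 in wild-type samples. *Krt7* was called lower in *Prdm14*-null cells (limma adjusted p = 0.00239), where 0 of 3 arrays detected it against 3 of 3 wild-type arrays. It thus passed the detection filter only through the wild-type arrays, and its level in *Prdm14*-null cells is only a bound. Its wild-type log2 levels spread widely (6.23, 7.28 and 7.45 in replicates 1, 2 and 3). *Cdx2* was not called (log2 fold change -0.34, limma adjusted p = 0.214). Of 4 markers of B and plasma cells, which use PRDM1, only *Sdc1* had one, detected on 2 *Prdm14*-null arrays and on 0 wild-type arrays. The 4 germ cell markers *Ddx4*, *Dazl*, *Dnd1* and *Nanos3* summed to between 409 and 640.0 in *Prdm14*-null samples and between 997 and 1261 in wild-type samples. *Dazl* was called lower (log2 fold change -1.98, limma adjusted p = 6.87e-05), *Dnd1* was not called (-1.19, adjusted p = 0.0136), and *Ddx4* and *Nanos3* failed the detection filter. The paper describes lower *Dazl* and *Dnd1* as a change in the ES cells themselves. Their levels are therefore not read here as a measure of germ cells in the cultures. The part of such cells in the results above was not tested.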

How the data were processed

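Total RNA of 3 *Prdm14*-null and 3 wild-type ES cell samples was hybridised to Illumina mouse WG-6 BeadChips. The authors deposited, for each array, the summarised signal intensity of 45281 probes, not normalized, with a detection p-value per probe. They also deposited processed log2 values for 15961 probes, which were exactly those with a detection p under 0.01 on at least 1 array; the submitters' processing notes name lumi, with no version given in the sources used here. The sources used here do not tell which arrays shared a BeadChip.

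Signals were corrected with normexp, with the negative control level inferred from detection p-values, then 16 was added, and values were quantile-normalized and taken to log2 (neqc in limma 3.58.1, R 4.3.3). Probes with a detection p under 0.01 on at least 3 of 6 arrays (14436) were fitted with lmFit and eBayes, with no block, and p-values were adjusted by Benjamini-Hochberg over all of them; the threshold was 0.01. Confidence intervals cover the spread between arrays, whose number limits the precision. Scripts were tested on simulated data. No 2 arrays held identical values.

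Genes were named from the platform annotation (13848 probes, of which 13829 had an identifier that matched the reference table); among tested probes 12582 had 1 symbol, 6 several and 1848 none. The rule for named genes took every probe of the 8 genes; from the lists, the genes called (there were none) and the PRDM genes detected on at least 1 array; and the 5 probes most correlated with the brightest probe of *Prdm14* and of *Cbfa2t2*. The other list genes named in the text fall outside the rule and were chosen after their values were seen. The members and lists were chosen with earlier results of these data known. Probe letters follow the order of the probe identifiers. Where an array of one genotype did not detect a probe, the bound used the lowest detected signal on that array.

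Alternatives were no background correction, an offset of 50, median scaling, the processed values, other filters, trended and robust variances, a replicate block, a threshold of 0.05 and leaving out each array. The mean of a gene's probes and the subtraction of each chromosome's median fold change were added after seeing the data.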

Additional observations from a re-analysis of the deposited data

How the results depend on the processing

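Both *Prdm14* probes were called lower under every alternative run, and the number of the 10 probes called stayed at 2 except at an adjusted p of 0.05, where it was 4; there 1848 of all probes were called higher and 1812 lower, against 892 and 1088 at 0.01. Leaving out each array in turn gave 2 to 2 of the 10 probes, 466 to 676 of all probes higher and 702 to 912 lower, the fewest in both directions without *Prdm14*-null replicate 2. Without wild-type replicate 2 or wild-type replicate 3, 561 probes were called higher.

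Signs changed only among probes that were not called; the cause was not tested. The fold change of *Prdm15* was -0.015 with median scaling, and that of *Prdm4* probe B was -0.0099 with the chromosome median removed. The mean of the 2 probes of *Prdm4*, which differ in sign, had a fold change of -0.056. Leaving out each array in turn gave log2 fold changes of -0.022 to 0.16 for *Prdm2* probe A, -0.062 to 0.10 for *Prdm4* probe B, -0.032 to 0.22 for *Prdm15* and -0.26 to 0.078 for *Prdm16*. For list genes it gave -0.042 to 0.079 for *Sin3b*, -0.092 to 0.065 for *Rcor1*, -0.056 to 0.075 for *Kdm1a*, -0.29 to 0.019 for *Ezh2*, -0.0025 to 0.12 for *Eed*, and -0.079 to 0.10 and -0.11 to 0.086 for 2 probes of *Tram1*.

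Replicates of the same number did not deviate together (r = -0.03, -0.06 and -0.12), and 0 of 6 arrays correlated best with the array of their own number. With so few arrays, these values cannot tell whether samples of the same number were handled together. With the replicate block 2 of the 10 probes were called, with 643 of all probes higher and 897 lower, and the adjusted p of *Cbfa2t2* was 0.0637 for probe A and 0.0543 for probe B. Without a filter on dim probes it was 0.0696 and 0.089. The *Prdm14* probes in *Prdm14*-null cells are at background, so that the size of their fold change has only a lower bound.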
